A study of Mus musculus with 9 samples.

Results

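Heterotrimeric G proteins and the proteins that shorten or shape their signal were followed in mouse hippocampus through 54 genes, measured by 71 of the 29922 probes of a two-colour oligonucleotide array. They were found by symbol among 16637 genes with a probe: 15 alpha subunits, 5 beta subunits, 11 gamma subunits, 18 RGS proteins (regulators of G protein signalling), 2 RGS-binding proteins and 3 Gpsm proteins. All 54 symbols were current, and Gnb1l and Rgsl1, which share a name with the families but name no heterotrimeric subunit or numbered RGS protein, were left out. Several probes were averaged for 13 of the genes.

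The 8 mice, all female, each gave 1 hippocampus for linearly amplified RNA, and every group held 2: wild-type (WT) animals of a 129SV with C57BL6 background at 3 months, the same at 12 months, and 3xTG mice at 3 and at 12 months. The 3xTG mice carry, among other changes, the transgenes labelled Tg (APPSwe,tauP201L) 1Lfa, of mutant human APP and tau, whose expression cassette in this line uses Thy1 regulatory sequence and is active mainly in neurons. Each of 3 comparisons was hybridised on 3 arrays that reuse these mice: WT at 12 over 3 months, 3xTG over WT at 3 months, and 3xTG over WT at 12 months.

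A heterotrimeric G protein consists of an alpha subunit, which binds GTP, and a tightly joined beta-gamma pair. A receptor that has bound its ligand makes the alpha subunit exchange GDP for GTP, and alpha and beta-gamma then act on separate effectors: alpha s raises and alpha i lowers cyclic AMP, alpha q activates phospholipase C beta, and beta-gamma opens inward rectifier potassium channels and slows presynaptic calcium channels. RGS proteins speed the hydrolysis of GTP by alpha i, o and q and so end the signal, and in hippocampal neurons these pathways carry much of the slow modulation by glutamate, GABA, acetylcholine, adenosine and endocannabinoids.

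The values were log2 ratios of test over reference RNA, given relative to the median of each array unless stated; the direction rests on the labels. An array listed a value for 45.7 to 54.1% of its probes, and no listed value was smaller in size than 0.501, so a small ratio and a rejected spot look alike as a missing value. Before centring, array medians ran from -1.71 to 2.34, and signal over background is unknown. Of the 54 genes, 4 had a value on all 9 arrays (7.41%, against 3.1% of all genes), namely Gnao1, Gnas, Rgs1 and Rgs8. A test was possible for 17 of the 54, those listed on at least 2 arrays of every comparison, by limma on a fit over all 9 arrays that allows for shared mice and dye. The 37 others are given as values only, and the 17 are not a sample of all members. With 2 mice per group, each used on 1 or more arrays, a p-value measures the spread between these few arrays and mice.

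**Figure D1:**
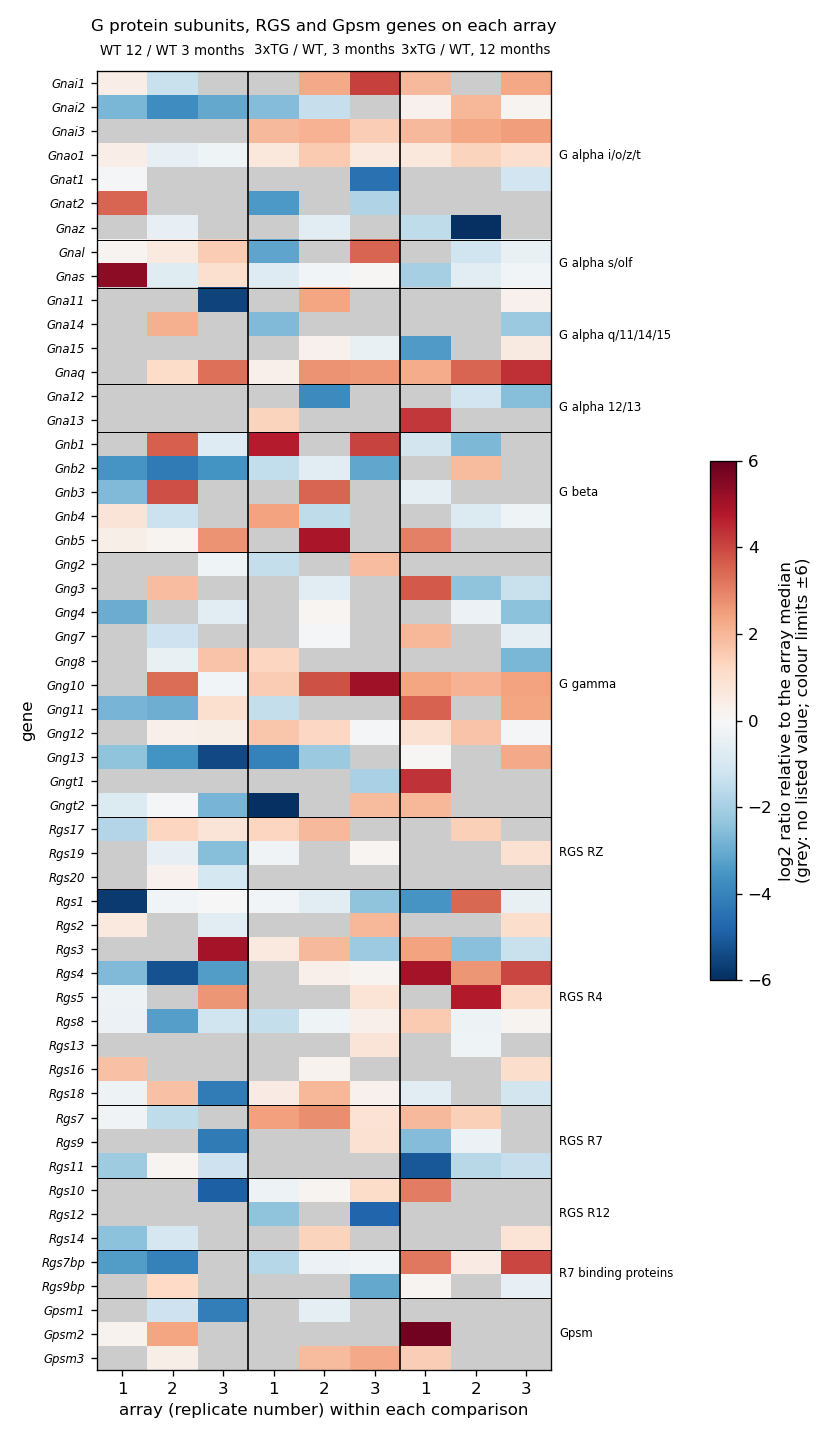
Log2 ratio relative to the array median of each of the 54 genes (rows, by family) on each of the 9 arrays (columns, 3 per comparison); grey marks no listed value and colours end at ±6. Rgs4, Rgs7bp, Gnai2, Gnb2 and Gng13 are blue on every array of WT ageing that lists them, and Gnai3, Gnaq, Gnao1 and Gng10 are red on all 6 arrays of 3xTG over WT.

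No member passed the limma adjusted threshold of 0.05 in any comparison, and 0% of the 3944 genes tested did. In WT ageing 4 of the 17 tested members had an unadjusted limma p under 0.05 below 0 (Rgs4, Gnai2, Gng13 and Rgs7bp), where 10.8% of all genes tested did, and 1 above 0 (Gnas), where 3.32% did. For genotype at 3 months 3 lay above 0 at that level (Gng10, Gnb1 and Gnai1; 10.5% of all genes) and 0 below it (6.29%). For genotype at 12 months 4 lay above 0 (Rgs4, Gnaq, Rgs7bp and Gng10; 15.4% of all genes) and 0 below it (2.74%). In the difference between the ages, 12 minus 3 months, 2 lay above 0 at that level (Rgs7bp and Rgs4; 6.9% of all genes) and 1 below it (Gnb1; 2.54%), and 8 of 17 were above 0 at any p (59.2% of all genes). Those shares of all genes are the background against which counts this small are read.

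As a group the tested members lay on both sides of the array median. In WT ageing 12 of 17 had a fitted log2 ratio below 0 (53.7% of all genes tested) and 5 above it (46.3%), with a median of -0.47 against -0.15 for all genes; the median was 1.41 against 1.74 without centring, and 0.01 against 0.52 with arrays centred on abundant transcripts. At 3 months 12 of 17 genotype ratios were above 0 (52.9% of all genes) and 5 below it (47.1%), with a median of 0.70 against 0.12, or 1.07 against 0.39 without centring and 0.05 against -0.60 relative to abundant transcripts. At 12 months 11 of 17 were above 0 (60% of all genes), with a median of 0.78 against 0.48; the sign turned to -0.49 against -0.69 without centring and to -0.95 against -1.28 relative to abundant transcripts. The member median thus stayed on the same side of the all-gene median in the 3 scalings, which shift all genes of an array alike and are not separate support.

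**Figure D2:**
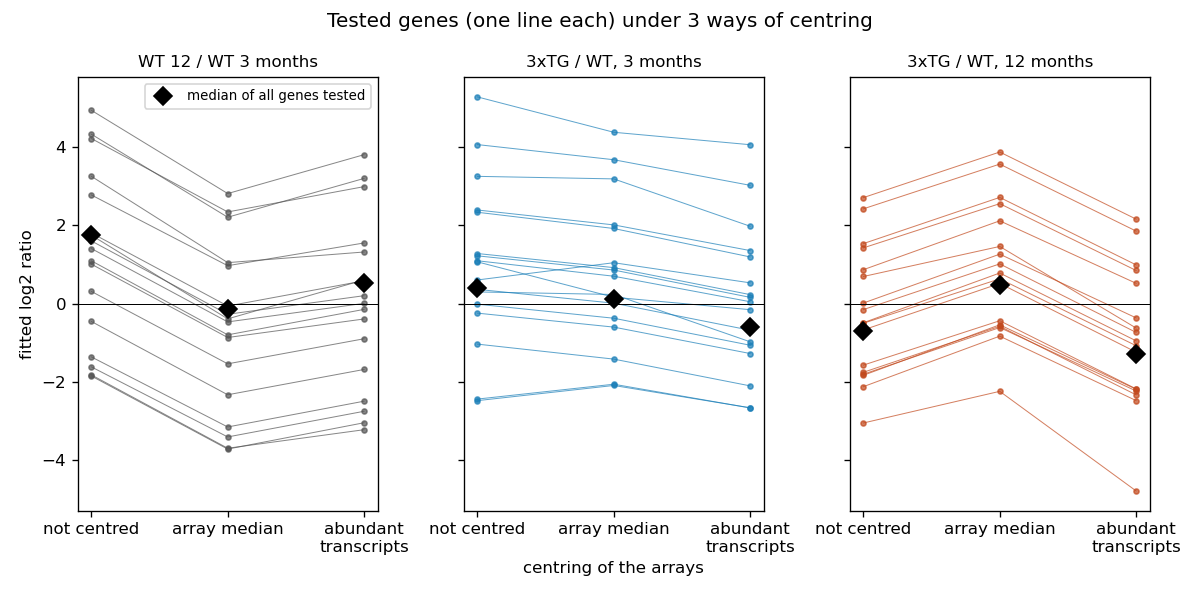
Fitted log2 ratio of each of the 17 tested members (one line each) without centring, centred on the array median and centred on abundant transcripts, by comparison; diamonds mark the median of all 3944 genes tested. The lines move with the diamonds, and at 12 months the median member is above 0 only with centring on the array median.

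Among the inhibitory alpha subunits, which lower cyclic AMP, Gnai2 was low in WT ageing. Its log2 ratios relative to the array median were -2.73, -3.73 and -3.06 on the 3 arrays, which placed it at the 13.2, 6.39 and 11.7 percentile of the genes listed there, a rank that centring cannot change. All 3 arrays lay below 0, and the fitted log2 ratio was -3.15 ± 0.83 (SE, n = 3 arrays, limma adjusted p = 0.138). For genotype at 3 months, against those young WT mice again, 2 arrays listed it, at -2.59 and -1.39 (fitted -2.09 ± 1.16, SE, adjusted p = 0.397). At 12 months its 3 arrays were at 0.26, 1.98 and 0.16 (fitted 0.78 ± 0.83, SE), above 0 here but at -0.49 without centring and -0.95 relative to abundant transcripts. The array at 1.98 averages a pair of probes that disagree, at -0.56 and 4.52.

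Gnai3, another inhibitory alpha subunit, had no listed value in WT ageing and was above the array median on all 6 genotype arrays. At 3 months it was at 1.94, 2.09 and 1.45 (1.83 ± 0.33, SD, n = 3 arrays), and at 12 months at 1.93, 2.32 and 2.50 (2.25 ± 0.29, SD, n = 3 arrays). The arrays of both ages overlap, and the spread between arrays was small beside the level. Without centring all 6 values stayed above 0, from 0.79 to 2.78, and relative to abundant transcripts 5 of 6 did, the lowest being -0.12. It did not enter the test across comparisons. In a fit that asks only for 2 arrays of the comparison tested, it had a limma adjusted p of 0.354 at 3 months and 0.243 at 12 months.

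Gnai1 was listed on 2 arrays in each comparison, so its spread rests on pairs of arrays. In 3xTG over WT at 3 months it was at 2.29 and 4.08 (fitted 3.19 ± 0.99, SE, limma adjusted p = 0.191), and at 12 months at 1.95 and 2.33 (fitted 2.12 ± 0.99, SE, adjusted p = 0.303). Without centring these fitted values were 3.25 and 0.87, and relative to abundant transcripts 1.98 and 0.52. In WT ageing the 2 arrays fell on both sides, at 0.38 and -1.32. Gnao1, the most abundant alpha subunit of brain membranes, sat close to the array median in WT ageing, at 0.41, -0.49 and -0.24. It was above it on all genotype arrays, at 0.65, 1.59 and 0.59 at 3 months and 0.62, 1.35 and 1.02 at 12 months. The fitted genotype values, 0.92 ± 0.72 (SE) and 1.02 ± 0.72 (SE, limma adjusted p = 0.48), are close to their errors, and the latter was -0.15 without centring and -0.74 relative to abundant transcripts. Its pair of probes fell on one side of the median on 2 of the 5 arrays that listed both.

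The remaining genes of this class were thinly listed. Gnaz, an alpha subunit insensitive to pertussis toxin, was listed at 12 months on 2 arrays, at -1.54 and -7.35. Gnat2, the transducin alpha of cones, was at -3.43 and -1.81 on 2 arrays at 3 months, and Gnat1, that of rods, had no comparison with more than 1 array.

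Of the stimulatory alpha subunits, Gnas, which activates adenylyl cyclase, spread widely in WT ageing, at 5.38, -0.71 and 0.98. The value of -0.71 came from another probe than those of 5.38 and 0.98. The arrays do not share a side, and the fitted 2.34 ± 0.95 (SE, n = 3 arrays, limma adjusted p = 0.294) ran from 0.57 to 3.37 over fits that left out 1 array in turn. Its genotype values were near 0 at 3 months (-0.76, -0.18 and 0.07) and below 0 at 12 months (-1.99, -0.63 and -0.15, fitted -0.58 ± 0.94, SE), with the fitted value at 0.13 without the third array. Gnal, which encodes alpha olf, the form that couples dopamine and adenosine receptors in striatum, was at 0.15, 0.59 and 1.5 in WT ageing (fitted 0.97 ± 1.16, SE, adjusted p = 0.822). At 3 months its 2 arrays stood at -3.17 and 3.49, a span wider than any difference between comparisons. These values came from different probes, so the span cannot be read as spread between arrays alone.

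Gnaq, the alpha subunit that activates phospholipase C beta, was above the array median wherever it was listed. On the 3 arrays of 3xTG over WT at 12 months it was at 2.23, 3.51 and 4.39, and the fit gave 3.57 ± 0.90 (SE, n = 3 arrays, limma adjusted p = 0.146). These arrays lay at the 77.5, 93.0 and 96.4 percentile of listed genes. At 3 months it was at 0.30, 2.68 and 2.58 (fitted 2.01 ± 0.91, SE, adjusted p = 0.303), and in WT ageing 2 arrays listed it, at 1.08 and 3.29 (fitted 2.81 ± 1.27, SE, adjusted p = 0.364). The ranges of the 3 comparisons overlap, and the difference between the ages in genotype effect was 1.55 ± 1.25 (SE, adjusted p = 0.703). The fitted 12-month value was 2.42 without centring and 1.86 relative to abundant transcripts. Gnaq had 4 probes, which disagreed: of 15 pairs on one array 10 fell on the same side of the median, and the median gap was 2.80 log2 units. One probe was at 2.94, 3.89 and 4.94 at 3 months and 2.55, 3.67 and 5.89 at 12 months. Another, at -2.19 and -1.60 on the same first 2 arrays at 3 months, went the other way.

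The close relatives of Gnaq gave single arrays or opposite signs. Gna11, which shares its effector, had 1 array in each comparison, at -5.54 in WT ageing, 2.37 at 3 months and 0.24 at 12 months. Gna14 likewise had 1 array each, at 2.12, -2.66 and -2.23. Gna15, a form of blood cells, was at -3.42 and 0.56 at 12 months. Gna12 was at -1.17 and -2.56 at 12 months, while Gna13, the other gene of its class, had a single array at each age.

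Among beta subunits, Gnb1, the common beta subunit of brain, was listed on 2 arrays in each comparison. For genotype at 3 months it stood at 4.73 and 4.04 (fitted 4.38 ± 1.30, SE, limma adjusted p = 0.186), and at 12 months at -1.10 and -2.69 (fitted -2.24 ± 1.89, SE, adjusted p = 0.575). The arrays of the 2 ages do not overlap. The difference, 12 minus 3 months, was -6.62 ± 2.29 (SE), with a limma adjusted p of 0.51, so the genotype effects were not shown to differ. WT ageing gave 3.57 and -0.78 on 2 arrays. The values of Gnb1 at 12 months were -3.05 without centring and -4.79 relative to abundant transcripts.

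Gnb2 was low on all 3 arrays of WT ageing, at -3.53, -4.24 and -3.59 (-3.79 ± 0.39, SD, n = 3 arrays), among the lowest 7.09% of listed genes on each. On the 3 arrays of genotype at 3 months it was also below 0, at -1.49, -0.70 and -3.12 (-1.77 ± 1.23, SD, n = 3 arrays), and 1 array listed it at 12 months, at 1.90. The arrays of these 2 comparisons do not overlap. Both were measured against the young WT mice, so they are not separate results. Without centring the mean in WT ageing was -1.88. Gnb2 did not enter the test across comparisons; in the fit that asks for 2 arrays of the comparison tested its adjusted p was 0.219 in WT ageing and 0.354 at 3 months. Gnb5, the beta subunit that pairs with R7 RGS proteins in place of a gamma subunit, was at 0.37, 0.19 and 2.70 in WT ageing and listed once at each age for genotype, at 4.91 and 3.04. Gnb3, best known from cones, was at -2.64 and 3.86 in WT ageing, and Gnb4 at 2.41 and -1.53 at 3 months, so neither holds a direction there. At 12 months Gnb4 was at -0.80 and -0.28 on 2 arrays (fitted -0.54 ± 1.21, SE, limma adjusted p = 0.869).

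Gamma subunits anchor the beta-gamma pair in the membrane. Gng10, a widely expressed one, was above the array median on all 6 genotype arrays. At 3 months it was at 1.53, 3.82 and 5.11, and the fit gave 3.68 ± 1.00 (SE, n = 3 arrays, limma adjusted p = 0.155). At 12 months it was at 2.39, 2.07 and 2.43 (fitted 2.56 ± 1.00, SE, adjusted p = 0.213). Arrays of the older mice lay within the range of the younger, and the difference between the ages was -1.12 ± 1.38 (SE, adjusted p = 0.838). Its fitted values were 4.07 and 1.43 without centring and 3.03 and 0.85 relative to abundant transcripts. Both of its probes were above the median on every genotype array that listed them. In WT ageing its 2 arrays stood apart, at 3.37 and -0.16.

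Gng13, a gamma subunit known from taste and olfactory cells and present in brain, was at -2.41, -3.58 and -5.42 in WT ageing (fitted -3.41 ± 0.87, SE, n = 3 arrays, limma adjusted p = 0.141). Genotype at 3 months gave -4.06 and -2.24 on 2 arrays (fitted -2.06 ± 1.24, SE, adjusted p = 0.431), and genotype at 12 months 0.09 and 2.25 (fitted 1.27 ± 1.02, SE, adjusted p = 0.555), which became -0.36 relative to abundant transcripts. As for Gnb2 and Gnai2, the comparisons below 0 are those with WT mice of 3 months as reference. Gng12 was listed on 3 arrays at each age for genotype, at 1.68, 1.23 and -0.11 and at 0.94, 1.71 and -0.06, neither clear of 0. Gng11, a gamma subunit of vessels and other non-neuronal cells, was at -2.80, -2.91 and 0.97 in WT ageing and at 3.56 and 2.36 on 2 arrays at 12 months. Gng3, abundant in neurons, gave 3.68, -2.39 and -1.32 at 12 months. Gng7, the partner of alpha olf in striatum, was at 2.00 and -0.59 there, and Gng4 at -0.36 and -2.44. Gng2, Gng8, Gngt1 and Gngt2 gave no comparison of 2 or more arrays with one sign except Gngt2, which was at -0.83, -0.12 and -2.79 in WT ageing.

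**Figure D3:**
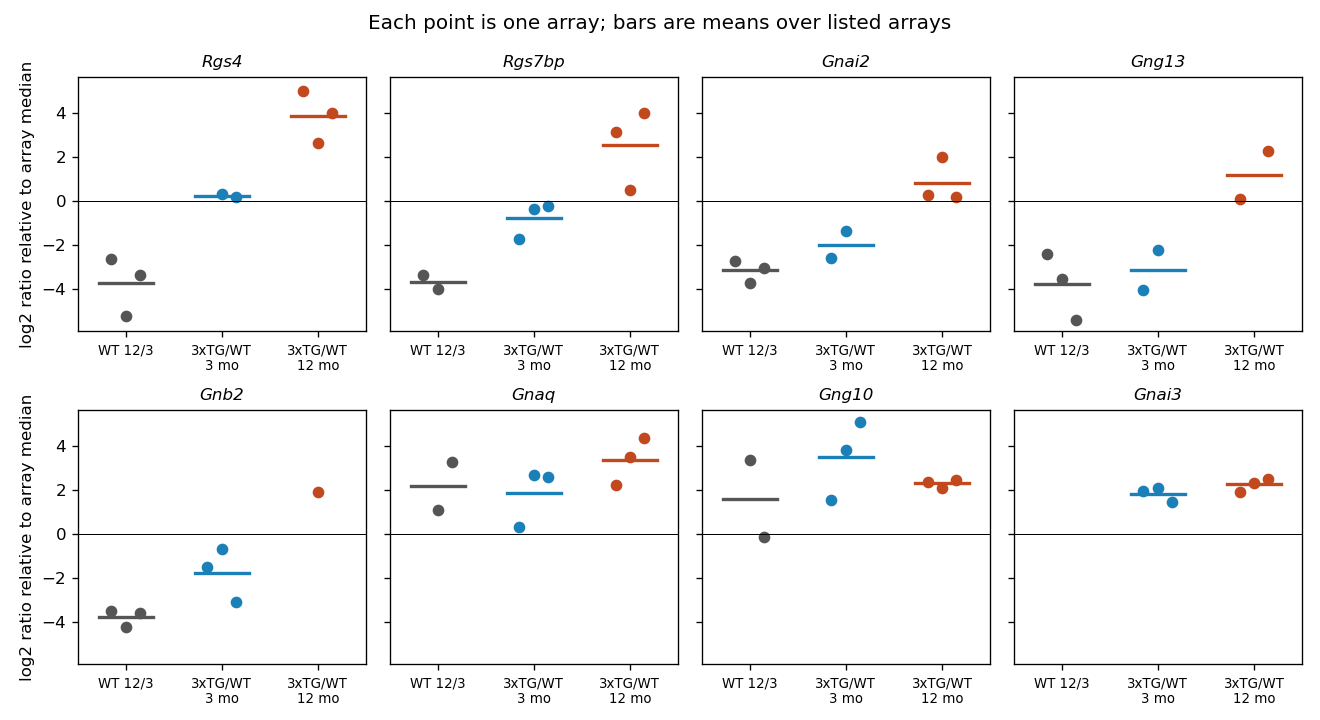
Log2 ratio relative to the array median on each array (points) for 8 genes, with the mean over the arrays that list the gene (bars), in the 3 comparisons. Rgs4 lies between -5.25 and -2.66 in WT ageing, at 0.16 to 0.31 for genotype at 3 months and between 2.63 and 5.01 at 12 months; Gnai3 and Gng10 lie above 0 on all 6 genotype arrays.

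Rgs4 had the smallest limma adjusted p among the members in WT ageing. It belongs to the R4 group of small RGS proteins that acts on alpha i, o and q and is abundant in cortical and hippocampal neurons. On the 3 arrays of WT at 12 over 3 months it was at -2.66, -5.25 and -3.37. All were low, at the 14.1, 1.52 and 8.74 percentile of listed genes, and the fitted log2 ratio was -3.72 ± 0.87 (SE, n = 3 arrays, limma adjusted p = 0.12). On the 3 arrays of 3xTG over WT at 12 months it was at 5.01, 2.63 and 3.99, the 98.2, 84.6 and 95.0 percentile, and the fit gave 3.88 ± 0.86 (SE, n = 3 arrays, adjusted p = 0.14). For genotype at 3 months 2 arrays listed it, both near the median at 0.31 and 0.16 (fitted 0.23 ± 1.03, SE, adjusted p = 0.931). The 3 comparisons do not overlap, although without centring the 2 arrays at 3 months lay on both sides of 0, at -0.53 and 1.13. Without centring the 3 fitted values were -1.85, 0.30 and 2.71, and relative to abundant transcripts -3.05, -0.98 and 2.16, so only the value at 3 months changed sign. With the slide run of the arrays as a term they were -4.63, 1.23 and 4.31, and over fits that left out 1 array in turn they ran from -4.35 to -3.26 in WT ageing and from 3.31 to 4.33 at 12 months.

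The older WT mice served as test in WT ageing and as reference for genotype at 12 months, so the opposite signs of Rgs4 are not separate results. Carried through the WT mice, the log2 ratio of 3xTG at 12 over 3xTG at 3 months was -0.08 ± 1.5 (SE). This contrast was chosen after the values were seen. With 2 WT mice of 12 months, their age and these particular mice cannot be told apart. The difference of the genotype effects, 12 minus 3 months, was 3.64 ± 1.34 (SE, limma adjusted p = 0.51).

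Rgs7bp had the same order of values. It encodes a palmitoylated protein that holds complexes of R7 RGS proteins and Gnb5 at the membrane. In WT ageing 2 arrays listed it, at -3.36 and -4.04 (fitted -3.70 ± 0.99, SE, limma adjusted p = 0.145). For genotype it was at -1.72, -0.36 and -0.22 at 3 months (fitted -0.60 ± 0.87, SE) and at 3.15, 0.50 and 4.02 at 12 months (fitted 2.72 ± 0.87, SE, n = 3 arrays, adjusted p = 0.162). The difference between the ages was 3.32 ± 1.21 (SE, adjusted p = 0.51), and all 3 arrays of one age lay on the other side of the median from those of the other. The array at 0.50 averages probes at 3.14 and -2.14. The probe listed on 8 arrays gave 3.15, 3.14 and 4.02 at 12 months by itself, and the other, listed on 3 arrays, lay below 0 on each. Fitted at 12 months without centring the gene was at 1.54, and relative to abundant transcripts at 0.99. Without centring neither age kept one sign over its 3 arrays. Through the WT mice its ratio of 3xTG at 12 over 3 months was -0.38 ± 1.44 (SE).

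Rgs7 encodes one of the proteins that Rgs7bp binds. It was at 2.45, 2.80 and 0.88 for genotype at 3 months (fitted 1.92 ± 0.84, SE, n = 3 arrays, limma adjusted p = 0.299) and at 1.96 and 1.42 on 2 arrays at 12 months (fitted 1.46 ± 1.15, SE, adjusted p = 0.544), the latter being -0.62 relative to abundant transcripts. Rgs11, another R7 protein, was below the median on all 3 arrays at 12 months, at -5.10, -1.68 and -1.36 (-2.71 ± 2.07, SD, n = 3 arrays), and had no listed value at 3 months. Rgs9, the striatal and retinal form, was at -2.58 and -0.37 at 12 months. Rgs9bp, its anchor in retina, was at 0.15 and -0.49.

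Promoter sequence is shown for Rgs4 and Rgs7bp, and for Gnaq and Gng10, tested genes above the median on all 6 genotype arrays. Rgs4 and Rgs7bp had fitted ratios of opposite sign in the 2 comparisons that share WT mice of 12 months. So did the tested members Gnai1, Gnai2, Gnal, Gnao1, Gnas, Gnb1, Gng12, Gng13, Rgs7 and Rgs8, so this is not particular to the genes shown. The share over all genes was not counted. The genes shown were chosen after their values were seen. The 250 bases before the annotated start are given 5′ to 3′ on the coding strand, from RefSeq (GRCm38.p6), at chr1:169747643-169747892 on the minus strand for Rgs4, chr13:105054931-105055180 on the minus strand for Rgs7bp, chr19:16132434-16132683 on the plus strand for Gnaq and chr4:59034906-59035155 on the plus strand for Gng10. Capitals mark the half-site of the cyclic AMP response element (TGACG), the GC box (GGGCGG), the CCAAT box (CCAAT) and the TATA box (TATAAA), each searched on both strands, with no overlap between matches.
Rgs4: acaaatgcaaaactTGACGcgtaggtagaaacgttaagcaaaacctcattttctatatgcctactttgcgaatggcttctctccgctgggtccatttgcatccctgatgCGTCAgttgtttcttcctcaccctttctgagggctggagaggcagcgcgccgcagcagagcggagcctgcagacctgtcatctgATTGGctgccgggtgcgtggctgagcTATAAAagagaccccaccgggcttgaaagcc
Rgs7bp: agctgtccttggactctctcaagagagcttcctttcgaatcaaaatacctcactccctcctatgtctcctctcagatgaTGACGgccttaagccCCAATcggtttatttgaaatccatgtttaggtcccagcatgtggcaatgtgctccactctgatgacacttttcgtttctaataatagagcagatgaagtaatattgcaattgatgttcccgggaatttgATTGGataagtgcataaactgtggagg
Gnaq: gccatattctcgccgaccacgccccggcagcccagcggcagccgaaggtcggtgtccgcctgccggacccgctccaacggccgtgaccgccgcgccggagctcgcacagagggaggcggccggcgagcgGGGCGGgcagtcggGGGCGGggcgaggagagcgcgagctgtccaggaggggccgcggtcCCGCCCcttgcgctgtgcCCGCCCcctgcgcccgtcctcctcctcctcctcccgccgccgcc
Gng10: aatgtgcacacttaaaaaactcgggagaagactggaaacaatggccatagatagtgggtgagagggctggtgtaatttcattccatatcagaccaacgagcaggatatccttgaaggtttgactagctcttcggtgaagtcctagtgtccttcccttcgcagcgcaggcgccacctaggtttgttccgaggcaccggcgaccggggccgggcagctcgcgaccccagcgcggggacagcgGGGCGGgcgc

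The Rgs4 window held 2 half-sites TGACG, 1 CCAAT box and 1 TATA box, with a GC content of 53.6%. In the Rgs7bp window there were 1 half-site and 2 CCAAT boxes at 43.2% GC. Gnaq had 4 GC boxes at 79.2% GC and Gng10 had 1 at 58%, and neither had any of the other motifs. Of 32851 promoter windows of the same length in the table, which covers all kinds of genes, 17.8% held the half-site, 32.7% the GC box, 33.8% the CCAAT box and 12.4% the TATA box. Of the members 40 matched the table, and 15.0, 47.5, 30.0 and 15.0% of these held the same motifs. The median GC content was 59.8% for these member windows and 52.4% for all windows. For members 1 window per gene was taken, while the 32851 windows come from 27025 symbols. A match describes the letters only.

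All 4 tested R4 genes, Rgs4, Rgs8, Rgs1 and Rgs18, had a fitted ratio below 0 in WT ageing (53.7% of all genes tested). Their median was -1.94 against -0.15 for all genes, or -0.07 against 1.74 without centring. For genotype, 2 of the 4 were above 0 at each age (52.9 and 60% of all genes). In WT ageing the arrays fell on both sides for Rgs1 (-5.72, -0.15 and 0.05) and Rgs18 (-0.30, 1.74 and -4.21). Among R4 genes not tested, Rgs3 was at 5.01 and Rgs16 at 1.755 there on 1 array each, and Rgs5 at -0.30 and 2.63. Rgs8, known from Purkinje cells, was at -0.34, -3.32 and -1.22 in WT ageing (fitted -1.54 ± 0.85, SE, n = 3 arrays, limma adjusted p = 0.492), which became 0.31 without centring. Each of these arrays listed a different probe of Rgs8, so probe and array cannot be told apart there. Rgs1, an RGS protein of lymphocytes and microglia, was at -0.15, -0.63 and -2.40 for genotype at 3 months and at -3.52, 3.45 and -0.44 at 12 months. Rgs18, of platelets and other blood cells, was at 0.51, 2.01 and 0.27 at 3 months (fitted 0.86 ± 1.20, SE, adjusted p = 0.756). Rgs5, a marker of pericytes, was at 4.75 and 1.14 on 2 arrays at 12 months. Rgs2, an early response gene that acts on alpha q, was listed on 2 arrays in WT ageing, at 0.57 and -0.63, and once at each age, at 2.01 and 1.03. Rgs3 spread from -2.16 to 1.95 at 3 months and from -2.5 to 2.43 at 12 months. Rgs13 and Rgs16 had at most 1 array per comparison. Members of the R4 group thus ranged from Rgs4, with one sign per comparison, to Rgs1, with values on both sides in 2 comparisons. Rgs4 had a single probe, whereas the Rgs1 values rest on different probes. At 12 months its 3.45 came from another probe than -3.52 and -0.44, and at 3 months its -0.15 averages probes at 1.37 and -1.67. That contrast therefore cannot separate gene from probe.

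The RZ and R12 groups were listed too thinly for the test. Rgs17, an RZ protein of neurons, was at 1.28 and 1.96 at 3 months. Rgs19 was at -0.48 and -2.54 in WT ageing, and Rgs20 at 0.27 and -1.05. In the R12 group, Rgs14, found in pyramidal cells of area CA2, was at -2.45 and -0.99 in WT ageing and had 1 array for each genotype comparison, at 1.35 and 0.83. Rgs10, expressed by microglia and neurons, was at -0.29, 0.16 and 1.08 at 3 months, and Rgs12 at -2.40 and -4.75. Gpsm proteins bind alpha i in its GDP form and keep it from beta-gamma: Gpsm1 was at -1.26 and -4.16 and Gpsm2 at 0.21 and 2.36 in WT ageing, and Gpsm3, the form of immune cells, at 1.91 and 2.28 at 3 months.

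**Figure D4:**
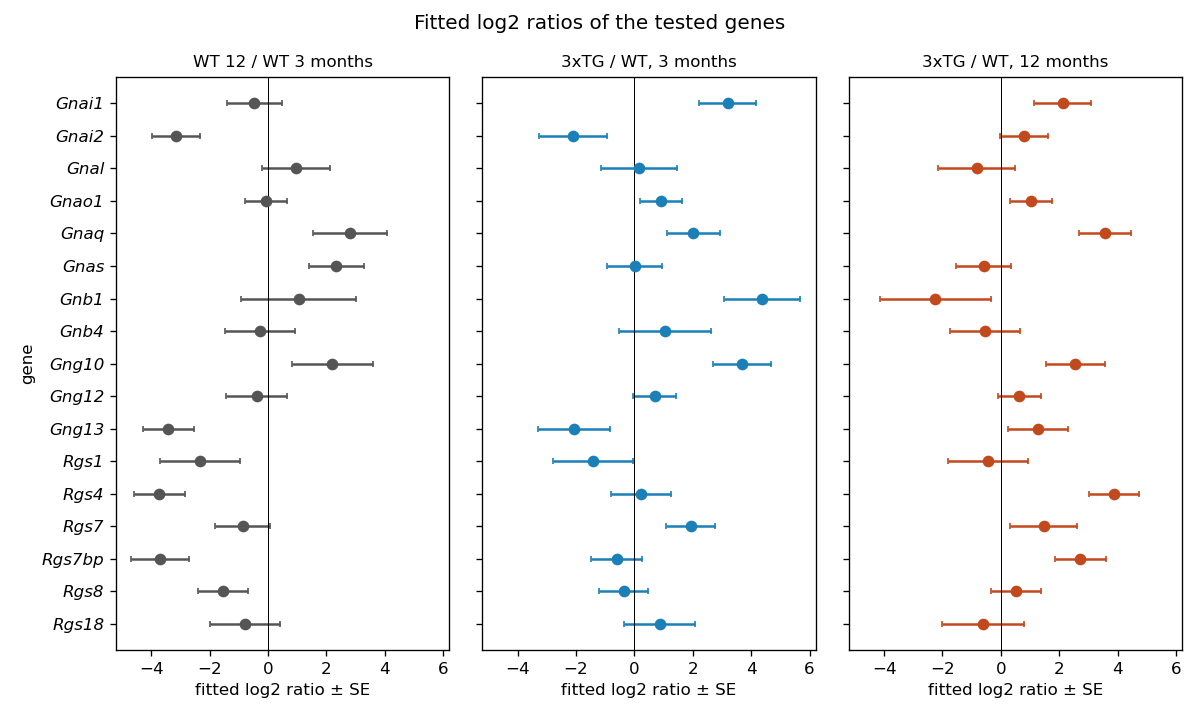
Fitted log2 ratio relative to the array median with its standard error (bars) for the 17 tested members, from the limma fit over all 9 arrays. No value passed the adjusted threshold; Rgs4 is at -3.72 in WT ageing and 3.88 for genotype at 12 months, and Gnb1 at 4.38 and -2.24 for genotype at the 2 ages.

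One sign on every array is a looser criterion than the test. In WT ageing 6 of the 15 members listed on all 3 arrays were below the median on each (23.3% of all genes so listed) and 2 above it (15.6%). At 3 months 6 of 14 were above it on each array (28.4%) and 3 below (19.8%), and at 12 months 7 of 14 above (30.4%) and 2 below (16.3%). Over both genotype comparisons, which share no mouse, 4 of the 10 members listed on all 6 arrays were above the median on each, Gnai3, Gnaq, Gnao1 and Gng10, where 23% of all genes were; 0 of 10 were below it, where 1.94% were.

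Probes of one gene show how far a single value can be trusted. On one array, 60 pairs of probes of the same gene were both listed, and 41 pairs (68.3%) fell on the same side of the array median. The median gap within a pair was 1.28 log2 units, and the largest was 7.36, for Gnaq. Gnai2 had 6 of 7 pairs on one side and Gng10 5 of 6, while Rgs8 had 1 of 4. Rgs4, Gnb1, Gnb2, Gng13 and Gnai3 had a single probe each, so no such check was possible for them. Where a probe was not listed, the gene value came from the remaining probes. Some genes thus rest on different probes on different arrays, among them Rgs8, Rgs1, Gnas and Gnal. Their fitted values mix differences between probes with those between arrays.

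**Figure D5:**
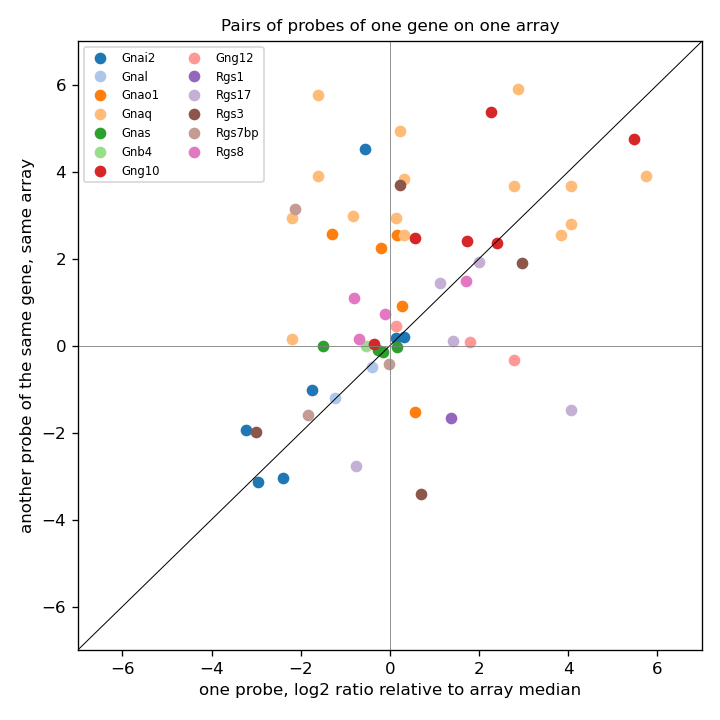
Log2 ratio relative to the array median of one probe against another probe of the same gene on the same array, 60 pairs from 13 genes; the diagonal marks equal values. Of the pairs, 41 have both probes on one side of 0, and the 15 pairs of Gnaq include the widest gap, 7.36.

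The wider pathway, 146 genes for receptors, their kinases and arrestins, cyclases, phospholipases, channels, exchange factors with an RGS-like domain and G protein chaperones, had 37 tested genes, and limma called 0 in each comparison. At an unadjusted limma p under 0.05 there were 2 above and 3 below 0 in WT ageing (3.32 and 10.8% of all genes tested), 5 and 0 at 3 months (10.5 and 6.29%) and 3 and 1 at 12 months (15.4 and 2.74%). Their medians were 0.17, -0.12 and 0.40, against -0.15, 0.12 and 0.48 for all genes tested. Grk2, the kinase that desensitises active receptors and binds beta-gamma, was below the median on all arrays of WT ageing, at -3.26 ± 0.79 (SE, limma adjusted p = 0.129), with Adcyap1r1, the receptor of the peptide PACAP, at -1.27 and Kcnj3, a channel subunit opened by beta-gamma, at -0.44; without centring the last pair were at 0.58 and 1.46, and Kcnj3 was at 0.16 relative to abundant transcripts. Snap25, a vesicle fusion protein that binds beta-gamma, was above it at 2.52 ± 0.76 (SE, adjusted p = 0.165), and Pth1r at 1.08.

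For genotype at 3 months Gpr12, an orphan receptor that couples to alpha s, was at 2.77 ± 0.94 (SE, limma adjusted p = 0.198), Ccdc88a, a protein that activates alpha i without a receptor, at 2.00 and Arhgef12, an exchange factor with an RGS-like domain, at 1.94. Adcy6, an adenylyl cyclase, was at -1.86, Gabbr1, a subunit of the GABA-B receptor, at -1.64 and Pth1r at -1.68. At 12 months Arhgef12 was at 2.3 ± 0.75 (SE, adjusted p = 0.162), Gpr12 at 1.91 and Ntsr2, a neurotensin receptor, at 1.26, while Cacna1b, the pore of a presynaptic calcium channel slowed by beta-gamma, was at -1.65 ± 0.98 (SE). Without centring Arhgef12, Gpr12 and Ntsr2 were at 1.12, 0.77 and 0.08, and relative to abundant transcripts at 0.55, 0.20 and -0.50. The receptor kinases and arrestins had 1 of 7 tested genes above 0 at 3 months (52.9% of all genes), with a median of -2.02, and 4 of 7 at 12 months (60% of all genes), with a median of 0.03. Over all listed genes of that list the array medians at 3 months were -1.90, -1.11 and 0.26, so the third array lay on the other side.

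Markers of cell types were set beside these values. Ratios cannot show whether a marker is expressed, so the tissue label was not checked in this way. Of 16 markers of pyramidal and granule cells, 6 were tested. In WT ageing and in genotype at 3 and at 12 months, 4, 4 and 5 of them were above 0 (46.3, 52.9 and 60% of all genes). Their medians were 0.11, 1.10 and 2.34, against -0.15, 0.12 and 0.48 for all genes tested. Among all listed values their array medians ran from -1.34 to -0.60 in WT ageing, opposite in sign to the tested median, from -1.59 to 0.21 at 3 months and from 2.29 to 2.41 at 12 months. Rgs4 and Rgs7bp lay on the same side as these listed values in WT ageing and at 12 months, but opposite the tested median in WT ageing. That median hides a wide spread, from -4.42 for Neurod2 to 0.71 for Calb1. Abundant transcripts (ribosome, proteasome, respiratory chain and glycolysis) ran from -0.996 to -0.42, from -0.18 to 1.56 and from 1.74 to 2.07 on the same scale. For the other lists, where 1 to 3 genes each were tested, array medians over the listed markers are given. At 12 months they ran from -0.43 to 1.87 for astrocytes, 0.23 to 1.21 for oligodendrocytes, -0.012 to 1.5 for microglia, 0.91 to 1.71 for interneurons, -0.64 to 2.27 for endothelial cells and pericytes, and -1.48 to 1.70 for choroid plexus. The endothelial and pericyte list includes the member Rgs5. Striatal markers, which include the members Gnal, Gng7 and Rgs9, ran from -0.10 to 1.22 at 3 months and from -0.79 to 2.46 at 12 months. Only the oligodendrocyte and interneuron lists among these had every array median at 12 months above 0. In WT ageing the array medians of these lists were all below 0, from -1.16 to -0.85 and from -0.91 to -0.23. They thus lay on the same sides as Rgs4 and Rgs7bp in both comparisons. The part of any of these cell types in the values of the G protein genes was not tested, and in tissue RNA fewer cells of a type and less RNA per cell cannot be told apart.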

How the data were processed

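The deposited table holds log2 ratios of 29922 probes on 9 arrays. How the authors scanned, background-corrected, filtered and normalized the arrays is not given in the sources used here. The log base and the direction, test over reference, were read from the values and the labels. The median of each array's values was subtracted, and the listed probes of a gene were averaged per array, so the probes behind a gene can differ between arrays. Symbols came from the platform annotation (21020 probes with 1 symbol, 8902 with none) and were updated through RefSeq for 2728 of 16675. Genes listed on at least 2 of 3 arrays of each comparison (3944 fitted) entered a generalised least squares fit with a coefficient per comparison and a dye term, 5 residual degrees of freedom where all arrays were listed, and a covariance from shared mice (between-mouse over between-array variance 0.115, estimated on 516 complete genes); limma 3.58.1 (R 4.3.3) moderated the variances, with Benjamini-Hochberg adjustment over all genes. On simulated arrays for genotype at 12 months with 3944 genes, 0 of 50 changes of 2, 9 of 50 of 4, 35 of 50 of 6 and 44 of 50 of 8 log2 units were recovered, with 3 false calls.

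Members and gene lists were chosen with earlier results of these data known. Members described first were those with one sign on all 3 arrays of a comparison, by smallest p, up to 6 a side; other members were named with their values, and for pathway genes up to 3 a side. Alternatives were other centrings, arrays as independent, no dye term, the slide run or replicate number as a term, other filters, 1 probe per gene and leaving out each array. Part of the strain description is not reported here.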

Additional observations from a re-analysis of the deposited data

Results flagged for a closer look

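Rgs7bp was below the array median on all 3 arrays of 3xTG over WT at 3 months and above it on all 3 at 12 months. The genotype log2 ratio at 12 minus 3 months was 3.32 ± 1.21 (SE), and this difference did not pass the test (limma adjusted p = 0.51). It was 1.78 without centring and 2.27 relative to abundant transcripts.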

How the results depend on the processing

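No member passed the limma adjusted threshold under any alternative. Over all genes, the count past it, 0 in each comparison, became 35 and 23 (WT ageing and genotype at 3 months) with arrays as independent, 47 and 11 without the dye term, and 17, 27 and 20 in the 3 comparisons among genes listed on all arrays. The member median moved to 1.41, 1.07 and -0.49 without centring and to 0.007, 0.049 and -0.95 relative to abundant transcripts, and the percentage above 0 to 70.6 and 52.9 in WT ageing and 41.2 and 29.4 at 12 months. In WT ageing the median was -0.67 with the slide run, -0.80 among genes listed on all arrays, -0.72 with 2 arrays of that comparison and -1.85 with 1 probe per gene; at 3 months the last 3 gave -0.18, 0.23 and 0.35. With the replicate block it was -1.10 in WT ageing, and the block changed no call. Equal replicate numbers are not labelled as pairing arrays. Same-number correlations ran from -0.053 to 0.084 over 516 genes, and those of other numbers from -0.123 to 0.115. With a between-mouse variance as small beside that between arrays as in the main fit (ratio 0.115), such correlations cannot exclude pairing. With 1 probe per gene the ratio was 0.828, on 112 complete genes, and over arrays left out it ran from 0.009 to 0.285. The ratio enters every standard error, so the errors of the main fit rest on an uncertain value. Leaving out 1 array in turn gave medians of -2.21 to -0.23, -0.083 to 1.08 and 0.45 to 1.41, and percentages above 0 of 23.1 to 41.7, 44.4 to 75 and 55.6 to 83.3. At 3 months the lowest median and percentage came without WT ageing replicate 2.

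Signs turned for Rgs8 in WT ageing (0.31 without centring), for Gnao1 at 12 months (-0.15 without centring, -0.74 relative to abundant transcripts, -0.25 with 1 probe), for Gnai2 at 12 months (-0.49, -0.95 and -0.09 likewise) and for Gnas at 12 months (0.13 without replicate 3, and -1.26 to 0.13 over all arrays left out). The Gnao1 difference between ages became -1.43, -0.97 and -0.71 under those same 3 settings, and -0.09, -0.25 and -0.14 without 3-month replicate 1, 3-month replicate 3 or 12-month replicate 2, within a range of -0.25 to 0.43 over all arrays left out. The cause was not tested. Missing small ratios and unknown signal over background limit every value.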
